A study of Homo sapiens with 6 samples.

Results

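The genes described here encode the subunits of the proteasome, its activators and inhibitor, and the factors that assemble it. They were chosen by symbol (PSM, a letter from A to G and a number, with or without the ending IP) and by a minimum of 10 counts in every culture. This rule used no difference between groups, but the genes were chosen with earlier results of these data known. Of 26485 gene names in the count table, 49 matched the symbol pattern and 45 of these met the minimum. RNA-seq measured 3 HEK293 cultures transfected with a Smart Silencer against the long noncoding RNA *HSALNG0134318* (KD-1, KD-4 and KD-5, knockdown replicates 1, 2 and 3) and 3 control cultures (NC-10, NC-11 and NC-1, control replicates 1, 2 and 3). HEK293 cells descend from human embryonic kidney cells. A Smart Silencer mixes small interfering RNAs with antisense oligonucleotides against a single transcript, delivered here by transient lipid transfection. The controls carry the genotype WT in the labels, and what they were transfected with is not given in the sources used here. The table has no row named *HSALNG0134318*, so the depth of the knockdown was not analysed here.

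The proteasome degrades proteins that carry ubiquitin chains. Its core particle is a barrel of 4 stacked rings, in which alpha subunits (*PSMA*) form the gates at both ends and beta subunits (*PSMB*) hold the proteolytic sites. Its cap, or regulatory particle, has a base with ATPases (*PSMC*) that unfold the substrate and thread it into the barrel, and a lid (*PSMD*) that removes the ubiquitin. Interferon exchanges the catalytic beta subunits for *PSMB8*, *PSMB9* and *PSMB10*, which gives the immunoproteasome that shapes peptides for antigen presentation. When proteasome activity falls short, the transcription factor NFE2L1 is known to raise the transcription of proteasome genes together, through antioxidant response elements in their promoters.

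The cap genes *PSMC3* and *PSMD7* passed the test below, and the letters before their start sites are shown here. They come from RefSeq on GRCh38.p14, and each run is printed up to the start of the gene in GENCODE, 5′ to 3′ on the strand of the gene, with CCAAT in either orientation in capitals.
*PSMC3*, chr11:47426474-47426689, minus strand: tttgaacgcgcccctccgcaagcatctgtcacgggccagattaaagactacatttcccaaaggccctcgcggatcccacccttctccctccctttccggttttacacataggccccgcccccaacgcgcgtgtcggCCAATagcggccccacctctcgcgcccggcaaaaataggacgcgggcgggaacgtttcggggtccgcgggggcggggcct
*PSMD7*, chr16:74296564-74296813, plus strand: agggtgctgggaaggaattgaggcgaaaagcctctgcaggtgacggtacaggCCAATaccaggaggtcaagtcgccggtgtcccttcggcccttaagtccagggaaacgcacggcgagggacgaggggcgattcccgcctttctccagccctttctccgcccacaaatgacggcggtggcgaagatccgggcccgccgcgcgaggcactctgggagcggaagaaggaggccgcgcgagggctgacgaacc

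Of the 45 genes, 39 had RefSeq promoter entries, with 48 windows of 250 bases before a start site. The letters TGACNNNGC, the core that NFE2L1 and NFE2L2 bind as partners of small MAF proteins, were searched on both strands and stood in 12 of these 48 windows (25.0%), against 10.9% of all 35116 windows. Neither the *PSMC3* nor the *PSMD7* window held them. These windows lie before RefSeq starts and were not cut at the GENCODE start. The matches of *PSMA4*, *PSMC5*, *PSME2* and *PSMG2* lie inside the gene as GENCODE places it. The 29 bases around the match are shown for the first gene of each sub-complex by symbol, with the match in capitals.
*PSMA4*, chr15:78540650-78540678, plus strand: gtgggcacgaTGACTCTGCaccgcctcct
*PSMB3*, chr17:38752627-38752655, plus strand: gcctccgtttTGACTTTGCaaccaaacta
*PSMC5*, chr17:63827654-63827682, plus strand: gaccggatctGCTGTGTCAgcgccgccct
*PSMD12*, chr17:67366724-67366752, minus strand: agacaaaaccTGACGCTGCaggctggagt
*PSMD5*, chr9:120843038-120843066, minus strand: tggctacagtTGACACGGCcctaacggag
*PSME1*, chr14:24136098-24136126, plus strand: atggcagggcTGACCCCGCctcctccatc
*PSMG1*, chr21:39183616-39183644, minus strand: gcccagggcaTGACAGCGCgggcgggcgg

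The other patterns searched on both strands were CCAAT, in 39.6% of the 48 windows and 32.0% of all windows, GAAANNGAA, a short form of the interferon-stimulated element, in 10.4% and 6.9%, the heat shock pattern TTCNNNGAA in 10.4% and 6.6%, and the ETS pattern CCGGAAGT in 10.4% and 3.4%. GAAANNGAA and TTCNNNGAA share their last letters and can cover the same bases. A match describes letters in a window and is not evidence of binding.

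The 6 libraries held 13900965 to 16869948 counts, of which the 45 genes took 0.517% to 0.604%. Normalized counts below are counts scaled to a common library size. All 7 listed genes of HEK293 cells (*VIM*, *KRT8*, *KRT18*, *NEFM*, *PAX2*, *LHX1* and *EPCAM*) had at least 10 counts in every culture. None of 8 haematopoietic markers did, with *CD3E*, *HBB* and *HLA-DRA* at 0 and a summed normalized count of 34.4 to 42.9 in the knockdown and 19.6 to 40.8 in the control cultures. Of 6 stromal and endothelial markers 2 did, *COL1A1* among them, with sums of 626 to 847 and 604 to 751. Control NC-11 stood apart from NC-1 and NC-10 in a way that followed transcript length and GC content, and values without NC-11 are given beside the groups of genes below.

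**Figure D1:**
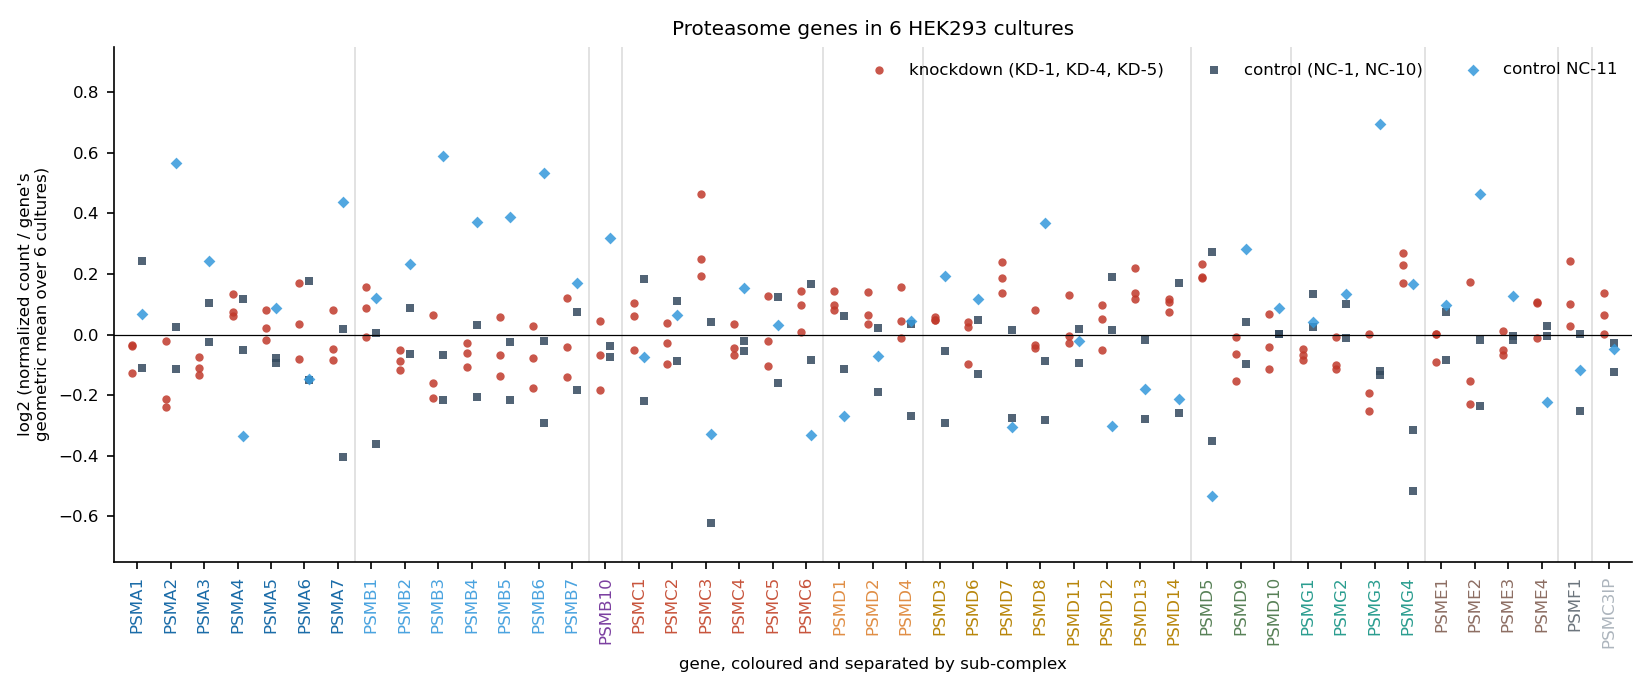
Normalized count of each of the 45 genes in each culture, as log2 of its ratio to the geometric mean of that gene over the 6 cultures (vertical axis), with genes separated by sub-complex from the alpha ring at the left to *PSMF1* and *PSMC3IP* at the right (horizontal axis). Red points are knockdown cultures, dark squares NC-1 and NC-10, and blue diamonds NC-11, which lies highest among the controls in all 7 beta ring genes.

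Few proteasome genes passed the test after *HSALNG0134318* knockdown. Of the 45 genes, 2 rose, the base ATPase gene *PSMC3* and the lid gene *PSMD7*, and 0 fell (edgeR quasi-likelihood test, adjusted P under 0.05 over 14877 genes). These are 4.44% and 0 of the 45, where 5.4% of all genes tested rose and 4.64% fell, so the share that rose was near the background. At an unadjusted P under 0.05, 5 of the 45 (11.1%) passed, 4 higher and 1 lower, against 26.9% of all genes tested. DESeq2 and limma-voom also called these 2 genes higher and 0 lower.

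The log2 fold changes (knockdown over control) of the 45 genes ran from -0.35 to 0.59, with a median of -0.02, which was also the median over all genes tested. There were 22 positive and 23 negative values, and their standard errors lay between 0.084 and 0.209. The normalized counts of knockdown and control cultures did not overlap for 10 of the 45 genes (22.2%), 8 above and 2 below, against 32.2% of all genes tested. The 8 were *PSMC3*, *PSMD1*, *PSMD2*, *PSMD7*, *PSMD13*, *PSMG4*, *PSMF1* and *PSMC3IP*, and the 2 were *PSMA3* and *PSMG1*. These RNA values come from whole cultures, where fewer cells of a kind and less RNA per cell cannot be told apart.

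**Figure D2:**
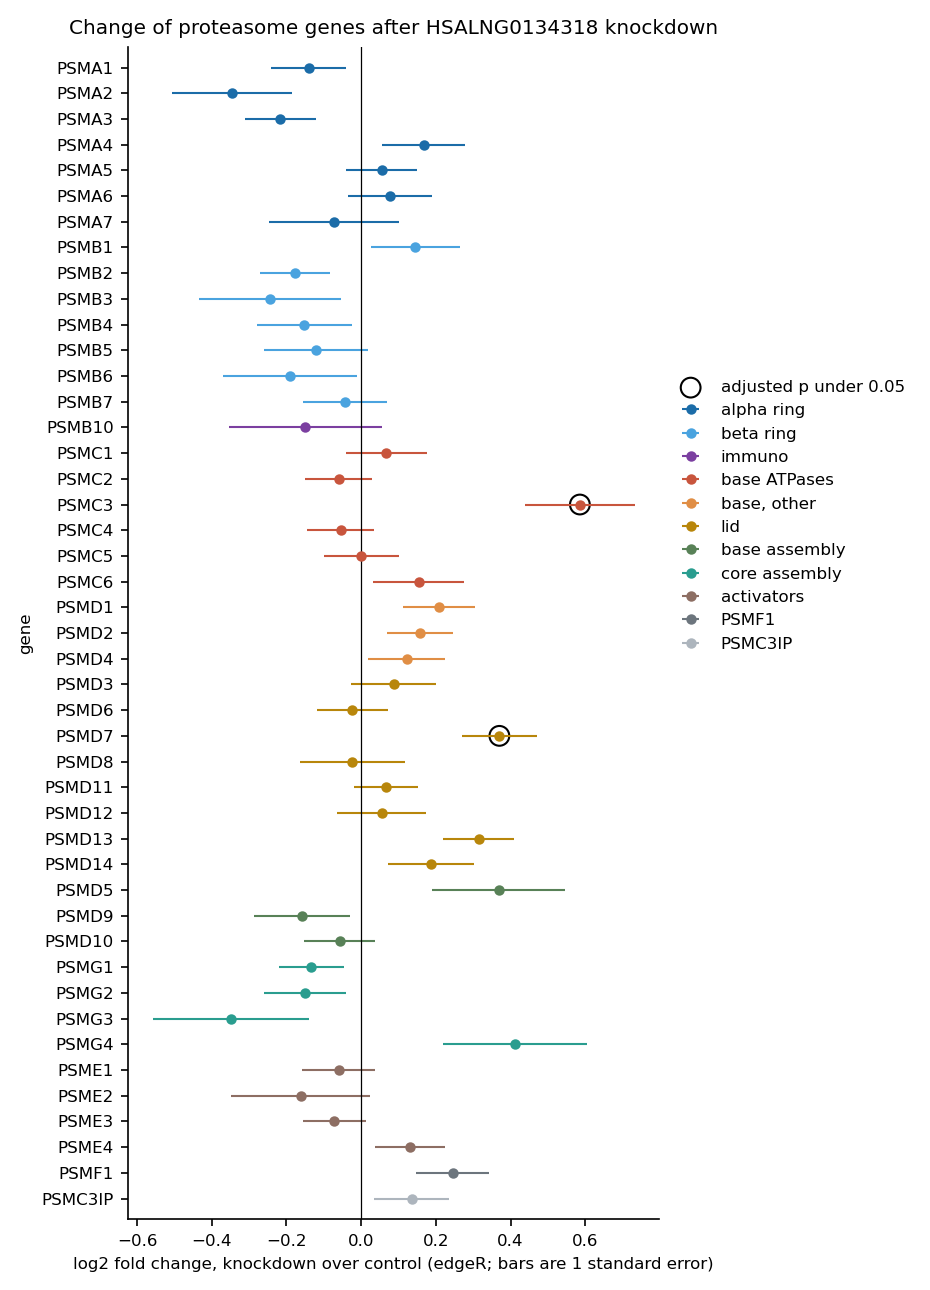
Log2 fold change of each of the 45 genes (horizontal axis, knockdown over control, edgeR) with bars of 1 standard error, by gene and coloured by sub-complex (vertical axis), and with rings around genes of adjusted P under 0.05. Only *PSMC3* (0.59) and *PSMD7* (0.37) carry a ring, and most values lie near 0.

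The 3 knockdown cultures resembled each other closely in these genes. The root mean square log2 difference over the 45 genes was 0.104 to 0.131 between knockdown cultures and 0.255 to 0.384 between control cultures. Control NC-1 lay 0.148 to 0.164 from the knockdown cultures, nearer than it lay to either other control. Over all genes tested, the same measure was 0.223 to 0.268 within the knockdown and 0.314 to 0.431 within the control group. The median coefficient of variation was 4.76% in the knockdown and 12.6% in the control cultures, against 7.82% and 13.3% over all genes tested.

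NC-11 was the control farthest from the other controls over the 45 genes together. This did not hold for the 17 cap genes alone. There the same measure was 0.292 between NC-1 and NC-10, and 0.287 and 0.269 between NC-11 and these 2 controls. NC-11 held the highest control value in 25 of the 45 genes (55.6%) and the lowest in 7 (15.6%), against 38.0% and 38.3% of all genes tested. NC-10 was the lowest control in most of the 45 genes, among them all 7 beta ring genes and *PSMC3*. The share of NC-10 over all genes tested was not computed. In the 15 genes whose canonical transcript is shorter than 1200 nt, NC-11 was the highest control in 13, with a median log2 difference of 0.37 from the mean of NC-1 and NC-10. In the 30 genes with longer transcripts it was the highest in 12, with a median difference of 0.02. Across the 45 genes, which share the same libraries, this difference correlated with log2 transcript length (r = -0.571, rho = -0.614) and with GC content (r = 0.604, rho = 0.556). Over 14471 tested genes the same correlations were r = -0.284 and rho = -0.368 for length and r = 0.479 and rho = 0.555 for GC content. Leaving out NC-11 moved the median log2 fold change of the short group from -0.14 to 0.03 and that of the longer group from 0.07 to 0.05.

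**Figure D3:**
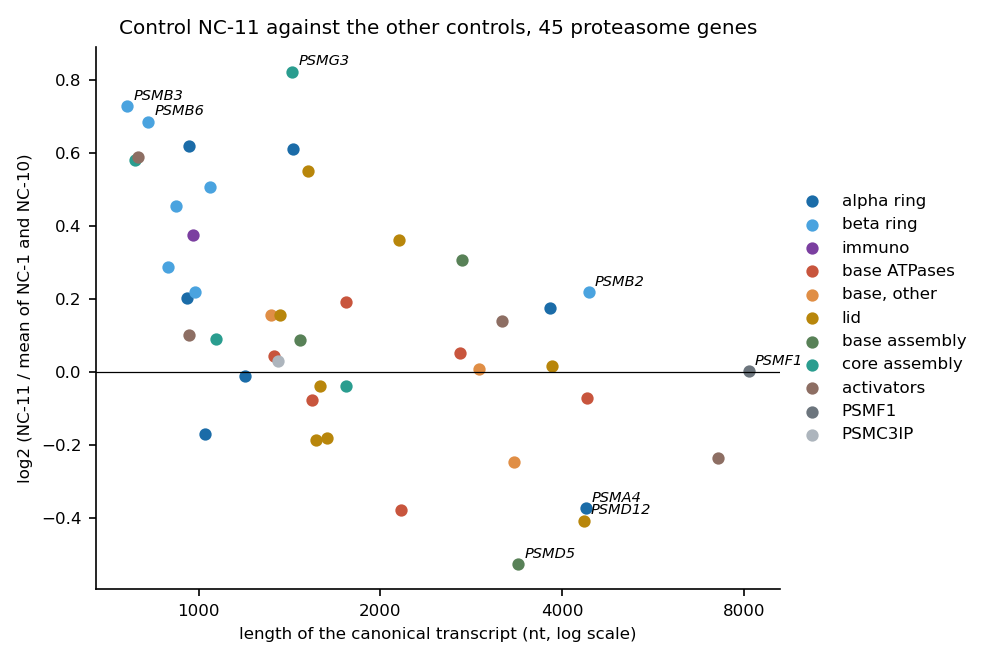
Log2 difference of control NC-11 from the mean of controls NC-1 and NC-10 (vertical axis) against the length of the canonical transcript in nucleotides (horizontal axis, log scale), 1 point for each of the 45 genes, coloured by sub-complex. The short beta ring genes lie above 0, and the long *PSMD5*, *PSMD12* and *PSMA4* lie below it.

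In the alpha ring, which forms the gated ends of the core particle, 0 of 7 genes passed the test with edgeR or under any alternative, and 1, *PSMA3*, had an unadjusted P under 0.05. Of all genes tested, edgeR called 5.4% higher and 4.64% lower, and 26.9% had an unadjusted P under 0.05. With only 7 genes, 0 calls lie near that background. The 7 alpha ring genes had a median log2 fold change of -0.07, with 3 positive and 4 negative values. *PSMA2* had the lowest value of the ring. Its normalized counts were 892, 781 and 768 in KD-1, KD-4 and KD-5 and 836, 921 and 1341 in NC-1, NC-10 and NC-11. The log2 fold change was -0.35 with a standard error of 0.16 (edgeR adjusted P = 0.19), and the groups overlapped, with NC-11 well above the other 5 cultures. Without NC-11 the value was -0.11 (adjusted P = 0.50). *PSMA3* differed by -0.22 (edgeR adjusted P = 0.17), and all 3 knockdown values, 1211, 1261 and 1231, lay below the lowest control value of 1305. *PSMA4*, at 0.17, was the highest of the ring, but without NC-11 it was 0.05 while *PSMA7*, at -0.07 with all cultures, was 0.16. The median of the ring without NC-11 was 0.02.

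In the beta ring, which lines the proteolytic chamber, 0 of 7 genes passed with edgeR or under any alternative, and 0 had an unadjusted P under 0.05. For 7 genes, 0 calls again lie near the background of 5.4% higher and 4.64% lower. An unadjusted P under 0.05 was found in 26.9% of all genes tested. The median log2 fold change of the ring was -0.15, with 6 negative values and a positive one for *PSMB1* (0.15). NC-11 was the highest control in 7 of 7 of these genes, by a median log2 difference of 0.46, and without it the median log2 fold change was 0.04 and that of *PSMB1* 0.25. *PSMB3*, a subunit without a catalytic site, had 1296, 1070 and 1108 normalized counts in the knockdown cultures and 1182, 1067 and 1863 in NC-1, NC-10 and NC-11. Its log2 fold change was -0.24 with a standard error of 0.19 (edgeR adjusted P = 0.45), and without a single culture it ranged from -0.40 to 0.04.

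The 3 catalytic genes of the ordinary core showed the same placing of NC-11. *PSMB5*, with the chymotrypsin-like site, had 1366, 1250 and 1192 normalized counts in the knockdown and 1290, 1128 and 1717 in NC-1, NC-10 and NC-11. *PSMB6*, with the caspase-like site, had 980, 850 and 911 against 948, 785 and 1392. *PSMB7*, with the trypsin-like site, had 1327, 1185 and 1106 against 1283, 1074 and 1371. In all 3 genes every knockdown value lay within the range of the controls, and the log2 fold changes were -0.12, -0.19 and -0.04 (edgeR adjusted P = 0.62, 0.54 and 0.84). Without NC-11 all 3 values turned positive, the largest being 0.08 for *PSMB6*.

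The immunoproteasome genes were scarcely expressed in these cells. *PSMB10* was the gene just inside the minimum, with 68, 58 and 66 counts in the knockdown cultures and 65, 64 and 96 in NC-1, NC-10 and NC-11. Its log2 fold change was -0.15, and -0.01 without NC-11 (edgeR adjusted P = 0.68 and 0.98). *PSMB8* and *PSMB9* lay just outside. *PSMB8* had 15, 7 and 3 counts in the knockdown and 7, 4 and 14 in the control cultures. *PSMB9* had 7, 5 and 4 against 7, 9 and 34, the last again in NC-11. *PSMA8*, the alpha subunit of the testis, and *PSMB11*, the beta subunit of the thymus, were at 0 in all 6 cultures, which allows up to 0.0332 CPM (3 counts among the 90352097 of the series, counting error only).

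Each immunoproteasome gene was set against the ordinary subunit whose place it takes, as a log2 ratio of normalized counts within each culture. The percentages below are not divided by length, and the canonical transcripts of *PSMB10*, *PSMB9* and *PSMB8* are 977, 1017 and 1124 nt long against 984, 824 and 1044 nt for *PSMB7*, *PSMB6* and *PSMB5*. *PSMB10* amounted to 4.94%, 5.11% and 6.41% of *PSMB7* in the knockdown and 5.21%, 6.08% and 6.25% in NC-1, NC-10 and NC-11. The difference of the log2 ratios was -0.10 (exact two-sided permutation test, P = 0.6, adjusted over 3 pairs 0.9). *PSMB9* amounted to 0.688%, 0.613% and 0.471% of *PSMB6* in the knockdown and 0.76%, 1.17% and 2.18% in the control cultures. Its mean log2 ratio was -7.42 ± 0.28 (SD, n = 3) in the knockdown and -6.33 ± 0.764 (SD, n = 3) in the control group. The groups did not overlap, and the difference was -1.09, at the smallest P that 3 against 3 cultures allow (exact permutation test, P = 0.1, adjusted 0.3). Without NC-11 it was -0.69, and it rests on 4 to 34 counts per culture. *PSMB8* and *PSMB9* share 139 nt of exon on opposite strands. *PSMB8* against *PSMB5* differed by 0.06 (exact permutation test, P = 0.9, adjusted 0.9), on 3 to 15 counts per culture.

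Both genes that rose encode cap subunits. *PSMC3* encodes an ATPase of the base whose tail docks into the alpha ring. It lies at chr11:47418769-47426473 on the minus strand (hg38), and its exons overlap those of no other gene in the table. Its normalized counts were 2354, 1951 and 2025 in KD-1, KD-4 and KD-5 and 1753, 1108 and 1358 in NC-1, NC-10 and NC-11. Every knockdown culture lay above every control culture, with group means of 2110 ± 215 and 1406 ± 325 (SD, n = 3 each). The log2 fold change was 0.59 with a standard error of 0.15, or 1.5-fold (edgeR adjusted P = 0.029).

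The *PSMC3* call was kept in 10 of 14 alternatives, with adjusted P from 0.0025 with the DESeq2 Wald test to 0.13. It was lost without NC-10 (adjusted P = 0.095), KD-1 (0.13), KD-4 (0.067) or KD-5 (0.083) in edgeR. The log2 fold change without 1 culture stayed between 0.44 and 0.78.

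*PSMD7* encodes a lid subunit that pairs with the deubiquitinating subunit PSMD14. It lies at chr16:74296814-74306288 on the plus strand (hg38), and its exons also overlap no other gene of the table. The knockdown cultures had 2670, 2571 and 2484 normalized counts, and NC-1, NC-10 and NC-11 had 2281, 1868 and 1830. The groups did not overlap, with means of 2575 ± 93.1 and 1993 ± 250 (SD, n = 3 each), and NC-1 was the nearest control. The log2 fold change was 0.37 with a standard error of 0.10, or 1.29-fold (edgeR adjusted P = 0.040).

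The *PSMD7* call was kept in 9 of 14 alternatives (adjusted P from 0.0054 to 0.14). In edgeR it was lost without NC-10 (adjusted P = 0.13), KD-1 (0.14), KD-4 (0.14) or KD-5 (0.12) and in the fit blocked by replicate number (0.057).

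The other 5 base ATPase genes had log2 fold changes from -0.06 to 0.15, and none passed. The highest of them, *PSMC6*, was 0.04 without NC-11. Exons of *PSMC1* share 4667 of 6129 nt with *NRDE2* on the opposite strand. *PSMD1* and *PSMD2*, the large scaffolds of the base, and the ubiquitin receptor gene *PSMD4* had values of 0.21, 0.16 and 0.12 (edgeR adjusted P = 0.20, 0.28 and 0.49). Without NC-11 the value of *PSMD1* was 0.13. *PSMD1* had 4309, 4453 and 4262 normalized counts in the knockdown against 4204, 3726 and 3342, and *PSMD2* 4186, 3969 and 3888 against 3856, 3331 and 3614. Their groups did not overlap, though the margin between NC-1 and the nearest knockdown culture was small in both.

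In the lid, 6 of 8 genes had positive values, and the median was 0.08, or 0.16 without NC-11. *PSMD13*, a structural lid subunit, had 1569, 1462 and 1480 normalized counts in the knockdown and 1331, 1109 and 1188 in NC-1, NC-10 and NC-11. All knockdown cultures lay above all controls, at a log2 fold change of 0.31 with a standard error of 0.096 (edgeR adjusted P = 0.061). It passed in 4 of 14 alternatives. *PSMD14*, the deubiquitinating subunit, had 0.19 (edgeR adjusted P = 0.33) and passed without NC-1 (adjusted P = 0.036). The remaining 5 genes lay between -0.02 and 0.09, and between -0.07 and 0.22 without NC-11.

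The number of genes called depended on the cultures included. In edgeR it was 0 without NC-10, KD-1, KD-4 or KD-5, in fits that called 289 to 375 of all genes higher in place of 804. Without NC-1 it was 5 (11.1%), namely *PSMC3*, *PSMD5*, *PSMD7*, *PSMD13* and *PSMD14*, against 7.18% of all genes tested. Without NC-11, 4 of the 45 rose (8.89%), namely *PSMC3*, *PSMD7*, *PSMD13* and the assembly factor gene *PSMG4*, against 8.45% of all genes tested. With each library corrected for its trends with GC content and length, 4 rose as well (8.89%), with *PSMC6* in place of *PSMG4*, against 9.29% of all genes. The shares of these last 2 fits were near the background.

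**Figure D4:**
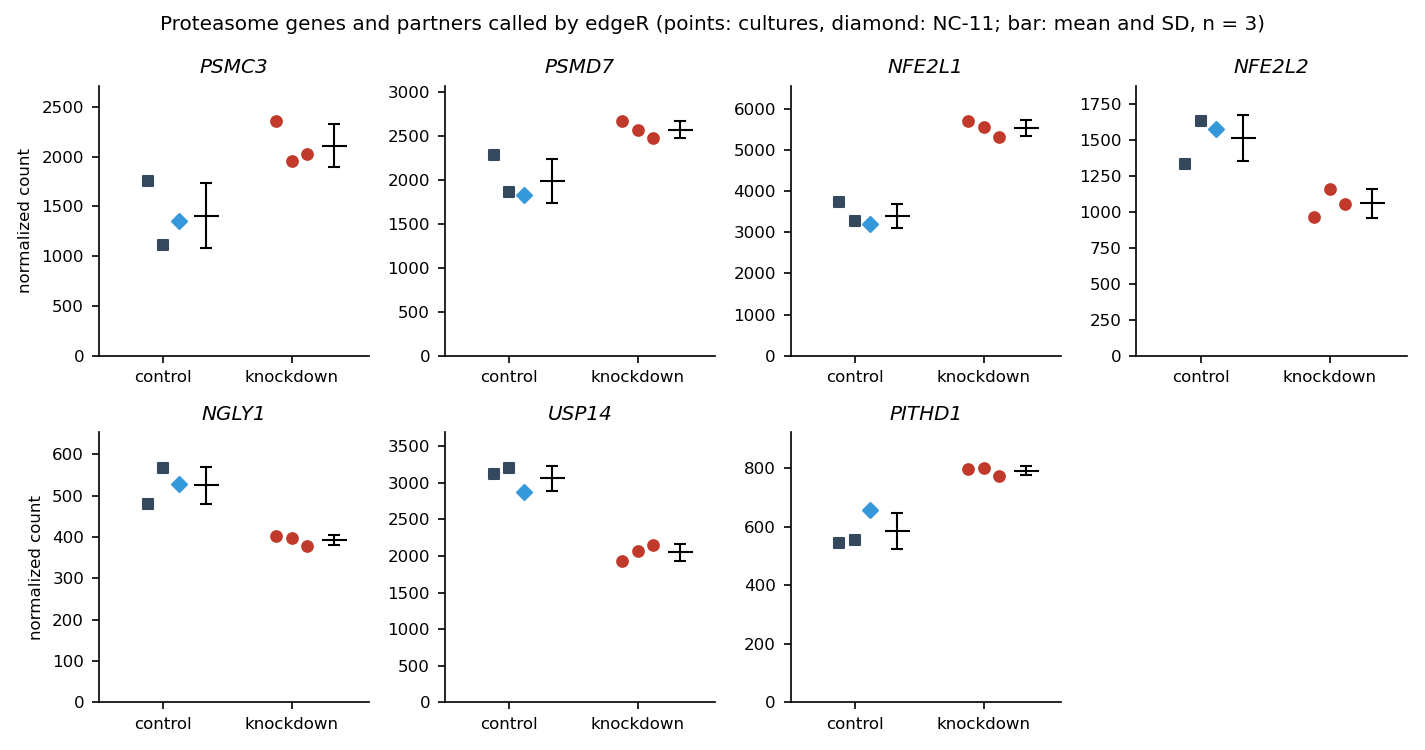
Normalized counts of 7 genes of the proteasome and its partners that passed the edgeR test, by culture and group (vertical axes start at 0). Points are cultures, with NC-11 as a diamond, and bars give the mean and SD of 3 cultures. In all 7 panels the groups do not overlap.

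Among the assembly factors, 0 of 7 passed with edgeR, and 0 had an unadjusted P under 0.05. The shares of all genes tested were 5.4% called higher, 4.64% lower and 26.9% with such a P. At 7 genes, 0 calls lie near that background. *PSMG1* to *PSMG4* encode the chaperones that build the alpha ring. *PSMG4* had 162, 151 and 158 normalized counts in the knockdown and 108, 93.9 and 151 in NC-1, NC-10 and NC-11, with NC-11 at the level of the lowest knockdown culture. Its log2 fold change was 0.41 with a standard error of 0.19 (edgeR adjusted P = 0.20), and without NC-11 it reached 0.64 (adjusted P = 0.019). *PSMG3* pointed the other way, with 265, 254 and 304 against 279, 276 and 491. The log2 fold change of -0.35 with a standard error of 0.21 (edgeR adjusted P = 0.31) became -0.02 without NC-11. *PSMG1* and *PSMG2* lay at -0.13 and -0.15.

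*PSMD5*, *PSMD9* and *PSMD10* encode chaperones of the base. *PSMD5* had 600, 599 and 618 normalized counts in the knockdown and 635, 412 and 363 in NC-1, NC-10 and NC-11, so that NC-1 lay above all knockdown cultures. Its log2 fold change was 0.37 with a standard error of 0.18 (edgeR adjusted P = 0.21), without NC-1 it was 0.65 (adjusted P = 0.0078), and without NC-11 it was 0.21 (0.35). *PSMD9* and *PSMD10* had -0.16 and -0.06, and -0.05 and -0.03 without NC-11.

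None of the 4 activator genes passed with edgeR, and 0 had an unadjusted P under 0.05. Over all genes tested, 5.4% were called higher, 4.64% lower and 26.9% had such a P, and 0 calls among 4 genes lie near that. *PSME1* and *PSME2* encode the interferon-inducible activator that opens the gate without ubiquitin or ATP. *PSME1* had 839, 839 and 787 normalized counts in the knockdown and 883, 790 and 897 in NC-1, NC-10 and NC-11, a log2 fold change of -0.06 (edgeR adjusted P = 0.74). *PSME2* had 259, 326 and 246 against 245, 285 and 398, a log2 fold change of -0.16 (edgeR adjusted P = 0.62), with NC-11 highest, and one of 0.06 without NC-11. *PSME3*, the nuclear homologue, and *PSME4*, which encodes a large single-chain activator, had -0.07 and 0.13, and -0.02 and 0.06 without NC-11. *PSMF1*, whose product inhibits the core particle in vitro, had 3130, 2833 and 2694 against 2647, 2219 and 2438. All its knockdown values lay above its controls, at 0.25 with a standard error of 0.097 (edgeR adjusted P = 0.13). Exons of *PSMF1* share 680 of 10361 nt with *TMEM74B*, and those of *PSMG4* 1388 of 10415 nt with *SLC22A23*, on opposite strands. *PSMC3IP* only shares the name, since its product acts in meiotic recombination, and it had 0.14 (edgeR adjusted P = 0.43).

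Per kilobase of canonical transcript, the control mean of the normalized counts ran from 257 (*PSMA5*) to 2890 (*PSMB4*) over the 14 core genes and from 396 (*PSMC1*) to 3030 (*PSMD8*) over the 17 cap genes. The immunoproteasome gene *PSMB10* stood at 74.3 on this scale, and *PSMB8* and *PSMB9* at 7.05 and 15.3, or 5.02 and 8.06 over NC-1 and NC-10 alone. The assembly factor genes *PSMD5*, *PSMG4*, *PSMD9* and *PSMG3* lay between 139 and 244, below every core and cap gene. The canonical models of *PSMA5*, *PSMC1*, *PSMA4* and *PSMB2* are 3815, 4390, 4378 and 4426 nt long, and a shorter model would raise their levels.

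Core and cap genes were set against each other after their values were seen, and this contrast has no test. The 14 core genes had a median log2 fold change of -0.13, with 10 negative values, and the 17 cap genes one of 0.09, with 13 positive. Without NC-11 both medians were positive, 0.04 for the core and 0.13 for the cap. They were -0.25 and 0.03 without NC-10, and -0.12 and 0.18 without NC-1. The summed normalized count of the core was 26811, 25882 and 25121 in the knockdown cultures and 27455, 23614 and 29297 in NC-1, NC-10 and NC-11. The summed count of the cap was 47249, 46095 and 44531 against 45215, 38690 and 43914. Each sum overlapped between the groups.

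The ratio of core to cap counts did not overlap. It was 0.567, 0.561 and 0.564 in the knockdown cultures and 0.607, 0.61 and 0.667 in NC-1, NC-10 and NC-11, with NC-11 the farthest, and its mean was 10.2% lower in the knockdown. Without *PSMC3* and *PSMD7* the ratio was 0.635, 0.623 and 0.628 against 0.667, 0.661 and 0.719, and its mean was 7.91% lower. The difference between the core and cap medians was -0.22 on the log2 scale, -0.21 with the GC and length correction and -0.09 without NC-11. Without NC-10 it was -0.28, without NC-1 -0.30, and without a single knockdown culture between -0.26 and -0.20. Core genes had shorter transcripts, with a median of 1004 nt against 1754 nt for cap genes, and the part of length in this ratio was not tested beyond that correction.

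**Figure D5:**
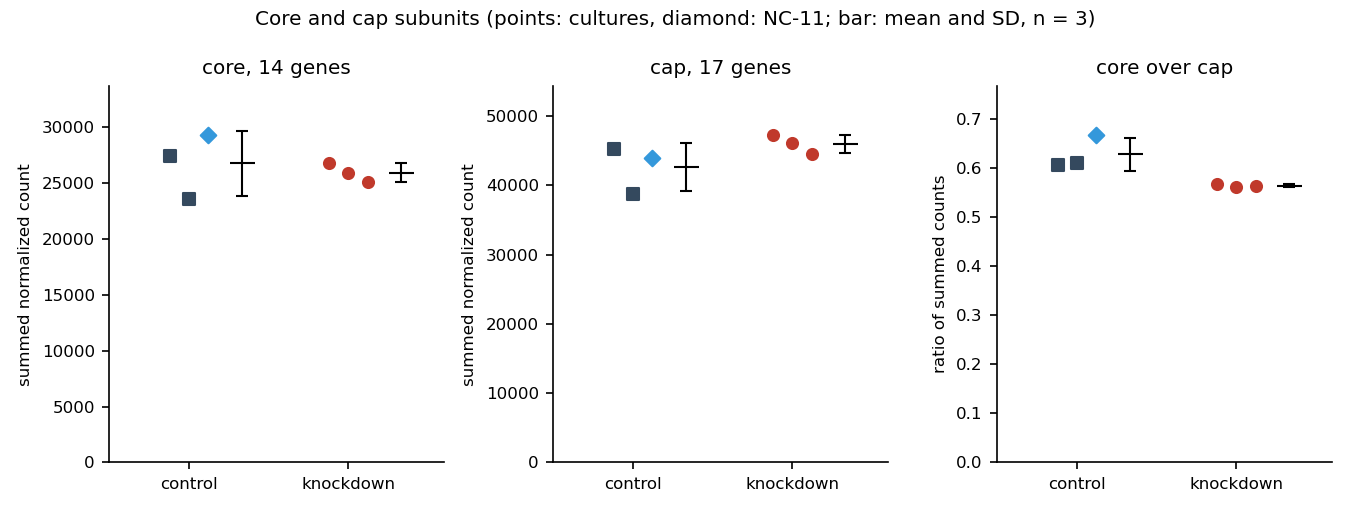
Summed normalized counts of the 14 core and the 17 cap genes, and their ratio, by culture and group (vertical axes start at 0). Points are cultures, with NC-11 as a diamond, and bars give the mean and SD of 3 cultures. The sums overlap between groups, and the ratio lies at 0.561 to 0.567 in the knockdown and at 0.607 to 0.667 in the control cultures.

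Of 9 genes that act in the transcription of proteasome subunits, 1 rose (11.1%), 2 fell (22.2%) and 6 did not pass in edgeR, against 5.4% and 4.64% of all genes tested. This list, like the others, was chosen with earlier results of these data known, so its shares are no test of the list. *NFE2L1*, the transcription factor named above, had 5694, 5560 and 5319 normalized counts in the knockdown and 3738, 3266 and 3208 in NC-1, NC-10 and NC-11. The groups lay far apart, at a log2 fold change of 0.70 with a standard error of 0.09 (edgeR adjusted P = 0.0010), and the call was kept in 14 of 14 alternatives. *NFE2L2*, a related factor of the oxidative stress response, had 962, 1159 and 1054 against 1329, 1629 and 1578. It fell by 0.51 on the log2 scale (edgeR adjusted P = 0.013, kept in 11 of 14 alternatives, lowest control above the highest knockdown culture). *NGLY1*, the enzyme that removes N-glycans from NFE2L1, had 403, 398 and 379 against 479, 567 and 528 and fell by 0.42 (edgeR adjusted P = 0.040, kept in 9 of 14).

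The protease gene *DDI2* and the segregase gene *VCP*, whose products also process NFE2L1, had 0.19 and 0.12 and did not pass, nor did *MAFF*, *MAFG*, *MAFK* and *BACH1*. The 12 proteasome genes with TGACNNNGC before a RefSeq start had log2 fold changes from -0.24 (*PSMB3*) to 0.37 (*PSMD5*), and none of them was called. Of all genes tested, 5.4% were called higher and 4.64% lower. With only 12 genes, the absence of calls lies near that background. Exons of *NFE2L2* share 3509 of 14975 nt with *HNRNPA3* and those of *NGLY1* share 536 of 8616 nt with *OXSM*, on opposite strands. The strand setting of the counting is not given in the sources used here, so reads in these and the other shared stretches cannot be told apart.

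Of 13 genes for proteins that bind the proteasome, 1 rose and 1 fell in edgeR (7.69% each, against 5.4% and 4.64% of all genes tested). Without NC-11, 2 rose and 2 fell, with *AKIRIN2* at 0.32 (adjusted P = 0.029) and *UCHL5* at -0.37 (adjusted P = 0.020) added. That fit also called more of all genes, with 1274 (8.45%) higher and 1238 lower among 15083 tested. *USP14* encodes a deubiquitinating enzyme on the base that trims ubiquitin chains. It had 1928, 2075 and 2154 normalized counts in the knockdown and 3115, 3207 and 2876 in NC-1, NC-10 and NC-11, and fell by 0.58 on the log2 scale with a standard error of 0.09 (edgeR adjusted P = 0.0023, kept in 14 of 14). *PITHD1*, which shares a domain with the proteasome-bound TXNL1, had 798, 801 and 773 against 544, 555 and 657 and rose by 0.43 (edgeR adjusted P = 0.029, kept in 8 of 14). With all cultures, *UCHL5*, the other deubiquitinating enzyme of the base, had -0.22 (edgeR adjusted P = 0.36), *AKIRIN2*, which serves the nuclear import of proteasomes, 0.06 (0.84) and the core chaperone gene *POMP* -0.11 (0.55).

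The COP9 signalosome, which removes the ubiquitin-like NEDD8 from cullin ligases, is built like the lid. Of its 9 genes, 0 passed with edgeR or under any of 14 alternatives, and 0 had an unadjusted P under 0.05. Of all genes tested, edgeR called 5.4% higher and 4.64% lower, and 26.9% had an unadjusted P under 0.05. With only 9 genes, 0 calls lie near that background. Their median log2 fold change was -0.06, or -0.03 without NC-11, and their lowest edgeR adjusted P was 0.30. NC-11 was the highest control in 6 of 9.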

How the data were processed

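RNA-seq of 3 *HSALNG0134318* knockdown and 3 control HEK293 cultures was analysed. The authors deposited raw counts of reads per gene, made per the labels and the paper's methods with FastQC, Trim Galore, SortMeRNA, STAR and featureCounts on hg38. The annotation, strand setting and handling of multi-mapping reads are not given in the sources used here, and paralogues or pseudogenes could share reads. In edgeR 4.0.16, filterByExpr kept 14877 genes, TMM set the scaling, and a quasi-likelihood F test with robust estimates compared the groups (Benjamini-Hochberg adjustment, threshold 0.05). Totals of 13900965 to 16869948 counts gave standard errors of 0.084 to 0.209 for the 45 genes. Normalized counts are counts scaled to the mean effective library size. Positions and lengths come from GENCODE release 44 and promoters from RefSeq.

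Values by culture are given for called genes, *PSMB5* to *PSMB10*, *PSME1*, *PSME2* and the 3 largest rises and falls among genes not called; *PSMA3*, *PSMD1*, *PSMD2*, *PSMF1*, *UCHL5* and *AKIRIN2* were added, and list medians without NC-11 computed, after the values were seen. Alternatives were other scalings (DESeq2 1.42.0 size factors, library sizes alone) and filters, DESeq2's Wald test, limma-voom (limma 3.58.1), a replicate block, a loess correction for GC content and length (span 0.3) and leaving out each culture. The genes and lists were chosen with earlier results of these data known. Steps were tested on simulated data. P values measure the spread between 3 biological replicates a group. Results of 1 partner list are not reported here.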

Additional observations from a re-analysis of the deposited data

How the results depend on the processing

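Of the 45 proteasome genes, 0 were called lower in any of 14 alternatives. The number called higher, 2, became 4 with the GC and length correction and ranged from 0 to 5 when a culture was left out. It was 0 without NC-10, KD-1, KD-4 or KD-5, where edgeR called 289 to 375 of all genes higher in place of 804, 4 without NC-11 (8.89%, against 8.45% of all genes tested) and 5 without NC-1 (11.1% against 7.18%). With the replicate number as a block, 1 gene (*PSMC3*) was called higher, and 714 of all genes rose and 619 fell. The labels do not state whether these numbers pair the cultures. The deviations of same-numbered cultures correlated at -0.241, -0.148 and -0.041, and those of the other pairs at -0.091 to 0.204. With 3 cultures a group these deviations depend on each other, so they cannot decide whether the cultures were paired. Fold changes near 0 changed sign. With the GC and length correction *PSMC2* became 0.0029, *PSMC5* -0.0067, *PSMD10* 0.0064 and *PSMD8* 0.0078, and *PSMD8* became 0.0017 with limma-voom and 0.0020 with the block. With a culture left out, log2 fold changes that crossed 0 ranged from -0.26 to 0.16 for *PSMA7*, -0.40 to 0.042 for *PSMB3*, -0.28 to 0.017 for *PSMB4*, -0.25 to 0.070 for *PSMB5*, -0.36 to 0.078 for *PSMB6*, -0.14 to 0.034 for *PSMB7*, -0.019 to 0.19 for *PSMC1*, -0.089 to 0.012 for *PSMC4*, -0.075 to 0.072 for *PSMC5*, -0.069 to 0.18 for *PSMD12*, -0.025 to 0.22 for *PSMD3*, -0.092 to 0.030 for *PSMD6*, -0.16 to 0.18 for *PSMD8* and -0.30 to 0.064 for *PSME2*. The difference of the *PSMB8* to *PSMB5* log2 ratio ranged from -0.41 (without KD-1) to 0.58 (without KD-5) and was -0.21 without NC-10. The cause of these shifts was not tested. At this depth *PSMB8* and *PSMB9* allow no firm statement.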

Other observations

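Antisense transcripts beside proteasome genes were outside the symbol rule, and 5 have rows in the table. *PSMG3-AS1*, whose name places it antisense to the core chaperone gene *PSMG3*, had 249, 224 and 170 counts in KD-1, KD-4 and KD-5 and 121, 129 and 125 in NC-1, NC-10 and NC-11. All knockdown cultures lay above all controls, at a log2 fold change of 0.84 with a standard error of 0.16 (edgeR adjusted P = 0.0090), and the call was kept in 12 of 14 alternatives (adjusted P up to 0.056). *PSMG3* itself had -0.35 (edgeR adjusted P = 0.31). The exons of the pair share 60 nt, where sense and antisense reads cannot be told apart without the strand setting. *PSMD5-AS1* had 0.60 (edgeR adjusted P = 0.089), *PSMD6-AS2* 0.44 (0.29) and *PSMA3-AS1* -0.04 (0.91), and none of these passed. *PSMB8-AS1* had at most 3 counts in a culture.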
